A study of Mus musculus with 6 samples.

Results

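The genes described here are those whose RNA was highest or lowest at the middle stage, NPC, when mouse embryonic stem cells were taken through neuronal differentiation. A gene was included as a peak when both of its NPC values, in TPM (abundance scaled to transcript length and to the library's total), lay above all 4 values of the other stages, and as a dip when both lay below them. The mean of the higher side had to be 10 TPM or more. Of 46517 genes in the tables, 2416 met this rule, 1358 as peaks and 1058 as dips. All libraries came from E14TG2a, an established line of mouse embryonic stem cells, with the genotype given as WT. The stages were mESC (treatment None), stem cells grown feeder-free on gelatin, with serum and the cytokine LIF, which keeps them undifferentiated; NPC (treatment Neuronal differentiation), neuronal progenitors; and NC (treatment Neuronal differentiation), which the labels do not spell out and which is taken here as glutamatergic pyramidal neurons, the final stage that the design text names. There were 2 libraries a stage, called biological replicates in the labels, and no label gives a day. Poly(A) RNA depleted of rRNA was sequenced on an Ion Proton.

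The published differentiation protocol cited in the labels first lets the stem cells form floating aggregates and then gives these aggregates retinoic acid, a signal made from vitamin A. In the embryo retinoic acid binds nuclear receptors of the RAR and RXR families, which sit on DNA and switch on genes of hindbrain and spinal cord identity, above all the Hox genes at the 3′ ends of their clusters. Cells that receive the signal also make the CYP26 enzymes, which destroy it. Progenitors in the neural tube are further held in a dividing state by Notch signalling and given a dorsal or ventral identity by WNT, BMP and Hedgehog signals.

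Since every sample carries the same cell type label, embryonic stem cells, the stages rest on the titles. The summed level of a list of 24 pluripotency genes was 336 and 221 TPM in NPC, with 8181 and 8106 in mESC and 124 and 132 in NC. A list of 20 neural progenitor genes summed to 1912 and 2128 TPM in NPC, with 532 and 593 in mESC and 3342 and 2557 in NC. A list of 22 neuron structure genes summed to 1714 and 2214 TPM in NPC and 8464 and 7555 in NC. The amount of aligned sequence lay between 1.57 and 2.27 Gb per library, and between 16667 and 19040 genes reached 1 TPM. The mESC libraries differed from each other in endoderm and hypoxia genes, with values given beside those results. They also differed in extracellular matrix genes, which summed to 4470 and 1787.5 TPM, and in ATF4, amino acid and serine genes, at 4025 and 2301. The NC libraries differed in the ATF4 list too, at 1517 and 2867 TPM, and in epithelial junction and keratin genes, at 231 and 597. Other lists differed as well. In cultures of many cells, fewer cells of a type and less RNA per cell cannot be told apart.

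Most peaks and dips were small. The difference of NPC from the nearer of the other stages, on the scale of log2(TPM + 1), had a median of 0.41 over the 1358 peaks and -0.39 over the 1058 dips, and it was under 1.5-fold in 864 peaks and 722 dips. It reached 1 in 258 peaks and 149 dips and 2 in 86 peaks and 29 dips. The nearer stage was NC in 903 peaks and mESC in 454, with 1 tie, and NC in 616 dips and mESC in 442. The peaks were 12.2% of the 11173 genes with an NPC mean of 10 TPM or more, and the dips were 9.08% of the 11656 genes with such a mean over the other libraries. At the floor the last peaks included were Adssl1, 2600006K01Rik and C330018D20Rik, with NPC means just above 10 TPM. Trim56, Fzd4 and Gm13886, at 9.98, 9.97 and 9.96 TPM, fell just outside it. For dips the nearest inside were 1700027J19Rik, Ccdc166 and Ehbp1l1, and the nearest outside were Gm13247, Arhgef3 and E130102H24Rik, with a mean over the other libraries of 9.95, 9.85 and 9.82 TPM.

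A gene is named as called below when NPC differed from mESC and from NC in the same direction, each with an adjusted p under 0.05 in limma, a linear model fitted to log2(TPM + 1) of all 20232 genes that passed a filter on low values. All 1358 peaks and 1058 dips passed that filter, and 326 peaks were called higher and 201 dips called lower. Over all genes 501 were called higher (2.48%) and 281 lower (1.39%), which includes 175 and 80 genes under the floor of 10 TPM. The members were chosen on the same values, so their calls describe how large the differences were against the spread of replicates and are not separate evidence. Both contrasts also share the NPC libraries. With NPC replicate 1 left out, 87 genes were called higher and 59 lower, and with NPC replicate 2 left out, 119 and 75, with the remaining NPC library assumed to vary like the other stages. Over all tested genes the median difference was 0.18 from mESC and -0.11 from NC, and median-of-ratios scaling moved these to -0.02 and -0.04.

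**Figure D1:**
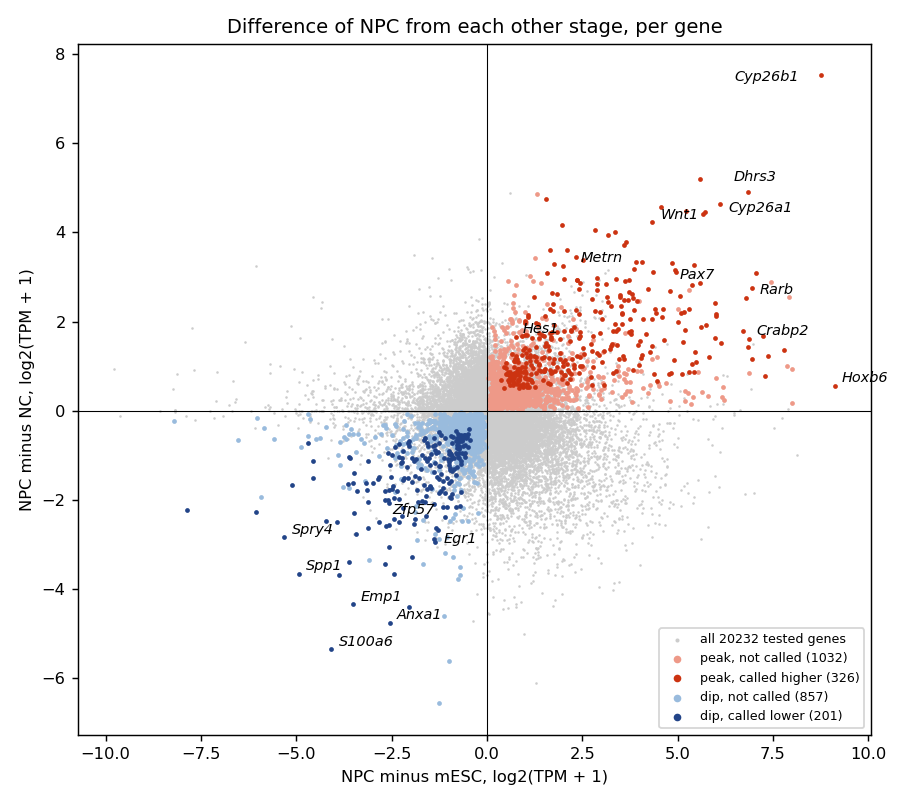
Each point is a gene, with the NPC minus mESC difference on the x axis and the NPC minus NC difference on the y axis, both in log2(TPM + 1). Peaks (red, the 326 called higher in the darker shade) fill the upper right corner and dips (blue, the 201 called lower in the darker shade) the lower left, and Cyp26b1 lies farthest out at 8.75 and 7.52.

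Most genes on the list of those that take up, carry, remove or answer to retinoic acid were peaks. Of its 21 genes all were tested and 12 were called higher, with a median difference of 3.76 from mESC and 1.24 from NC, and 14 were peaks. None was called lower by limma. At an unadjusted p under 0.05 in both contrasts 0 of 21 were lower, against 554 of all 20232 tested genes. At that share 21 genes would hold few, and members near 0 TPM in mESC had little room to be lower, so the 0 says little. Without NPC replicate 1 the count was 6 and without NPC replicate 2 it was 8.

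The enzymes that remove retinoic acid or its precursor had some of the largest differences. Gene positions here and below are those of the deposited tables, on mm10. Cyp26b1 (ENSMUSG00000063415.11, chromosome 6, 84571414 to 84593908, minus strand), a cytochrome P450 that oxidises retinoic acid, was at 574 and 734 TPM in the NPC libraries, compared with 0.582 and 0.436 in mESC and 2.52 and 2.57 in NC. Both NPC values stood far above the other 4, and the NC pair lay slightly above the mESC pair. The differences were 8.75 from mESC and 7.52 from NC (SE 0.21 for each, adjusted p = 6.42e-06 and 0.000173). Its paralog Cyp26a1 (ENSMUSG00000024987.5, chromosome 19, 37697808 to 37701528, plus strand) stood at 519 and 443 TPM in NPC, against 13.97 and 2.25 in mESC and 11.2 and 29.8 in NC, with mESC replicate 1 and NC replicate 2 the higher of their pairs but far below NPC. Its differences were 6.11 from mESC and 4.63 from NC (SE 0.73 for each, adjusted p = 0.00115 and 0.00788). The neighbouring Cyp26c1 on the same chromosome was at 47.3 and 33.4 TPM in NPC, with 0 and 0.195 in mESC and 0.322 and 1.54 in NC, and the stages did not overlap (differences 5.22 and 4.47, adjusted p = 0.000182 and 0.00293). Dhrs3, a reductase that turns retinaldehyde back into retinol, was at 168 and 343 TPM in NPC, with 1.596 and 0.701 in mESC and 4.78 and 10.2 in NC. NPC replicate 2 was the higher of the pair, and the differences were 6.84 from mESC and 4.91 from NC (SE 0.46 for each, adjusted p = 0.000131 and 0.00308).

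Carriers and importers of vitamin A and retinoic acid were also among the peaks. Crabp2, which carries retinoic acid to its receptors, was at 779.9 and 661 TPM in NPC, with 5.29 and 4.92 in mESC and 274 and 202 in NC. NC lay between mESC and NPC with no overlap, and NPC differed from NC by 1.61 (SE 0.18, adjusted p = 0.00377). Rbp4, the carrier of retinol in blood, was at 118 and 38.7 TPM in NPC, with 5.71 and 2.11 in mESC and 2.97 and 10.9 in NC, with NPC replicate 1 well above replicate 2 (differences 3.91 and 3.32). Stra6, the membrane receptor for that carrier, was at 34.4 and 37.3 TPM in NPC, with 2.69 and 1.14 in mESC and 8.999 and 10.8 in NC, and the NPC pair agreed closely (differences 3.71 and 1.76). Crabp1, the other cellular carrier, was no peak: it was at 847 and 537 TPM in NPC and 1453 and 896 in NC, so that both NC values lay above both NPC values.

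Of the enzymes that make retinoic acid, Aldh1a1, listed at 0 in mESC, was at 6.92 and 3.53 TPM in NPC and 0.671 and 0.583 in NC, under the floor of the rule but called higher (adjusted p = 0.00133 and 0.00976). Aldh1a2, the main such enzyme of the early embryo, stayed at 1.91 and 3.26 TPM in NPC and was not called. Aldh1a3 was at 0.491 and 0.216 TPM in NPC and 2.57 and 6.16 in NC (adjusted p = 0.0148). Rdh10, which makes retinaldehyde, was a peak at 17.1 and 13.5 TPM that lay just above NC at 10.1 and 12.7 and was not called against it (adjusted p = 0.3596).

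The receptors did not share a pattern. Rarb (ENSMUSG00000017491.8, chromosome 14, 16430842 to 16575472, minus strand), a receptor whose own gene responds to retinoic acid, was at 134 and 179 TPM in the NPC libraries, compared with 0.594 and 0 in mESC and 19.5 and 25.3 in NC. NC lay between the other stages, and the differences were 6.95 from mESC and 2.75 from NC (SE 0.29 for each, adjusted p = 3.25e-05 and 0.00346). Rara was a peak at 97.3 and 127 TPM against 53.8 and 53.1 in mESC and 74.03 and 83.1 in NC but was not called against NC (adjusted p = 0.07305). Rarg went the other way, from 117 and 151 TPM in mESC to 14.4 and 19.8 in NPC, close to NC at 12.3 and 11.5. Rxra, a shared partner of these receptors, was called higher at 43.7 and 42.5 TPM in NPC, against 8.61 and 10.2 in mESC and 28.1 and 27.1 in NC. The orphan receptor Nr2f1 was called higher at 176 and 242 TPM in NPC, against 0.167 and 0.373 in mESC and 71.5 and 106 in NC, while its relative Nr2f2, at 45.3 and 40.4 TPM in NPC and 34.9 and 37.9 in NC, was a peak that was not called against NC (adjusted p = 0.487). Rarb overlaps Top2b and Nr2f1 overlaps A830082K12Rik on the opposite strand, and no source used here says whether reads were counted by strand.

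The promoters of Rarb and Cyp26a1 are shown because they hold the direct repeat to which these receptors are known to bind. Of the 21 genes, 17 matched RefSeq promoter windows (GRCm38.p6, the same assembly as mm10). The 250 bases before the start were searched on both strands for a direct repeat of GGTCA or GTTCA with 6 bases between the copies. The matches stand in capitals, and the sequence reads 5′ to 3′ along the gene's strand.
Rarb, chr14:16575477-16575726, minus strand: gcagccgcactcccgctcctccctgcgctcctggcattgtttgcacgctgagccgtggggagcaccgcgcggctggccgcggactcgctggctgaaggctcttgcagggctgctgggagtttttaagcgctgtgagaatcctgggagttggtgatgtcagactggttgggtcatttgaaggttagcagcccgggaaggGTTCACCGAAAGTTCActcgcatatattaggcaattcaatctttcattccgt
Cyp26a1, chr19:37697558-37697807, plus strand: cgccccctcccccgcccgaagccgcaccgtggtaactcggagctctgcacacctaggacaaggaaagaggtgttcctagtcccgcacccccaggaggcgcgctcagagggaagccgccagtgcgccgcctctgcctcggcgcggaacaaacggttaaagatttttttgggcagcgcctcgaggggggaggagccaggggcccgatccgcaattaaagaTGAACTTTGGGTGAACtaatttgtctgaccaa
The match in Rarb begins 52 bases before the start. That in Cyp26a1 lies on the other strand and begins, read along the gene, 32 bases before the start. The repeat was rare in this window: 69 of 32851 windows held it (0.21%), as did 3 of 1134 windows of peaks (0.265%), those of Rarb, Cyp26a1 and Spg21, and 3 of 995 windows of dips (0.302%). A match is a description of the letters and not evidence of binding.

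**Figure D2:**
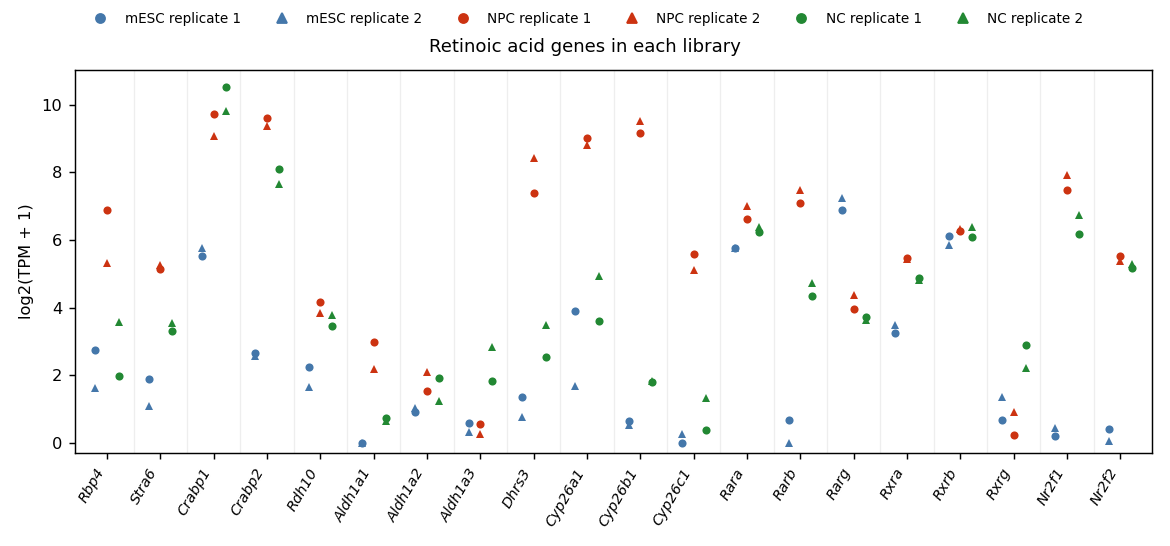
Level of retinoic acid genes in log2(TPM + 1) on the y axis, with 1 point for each library (colour for stage, shape for replicate), ordered from carriers to enzymes to receptors. The red NPC points of Cyp26b1, at 574 and 734 TPM, stand far above the others, while for Crabp1 the green NC points are highest and for Rarg the mESC points are highest.

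Hox genes, which encode the transcription factors that set position along the body axis, summed to 3613 and 4252 TPM in NPC, with 56.7 and 86.9 in mESC and 2752 and 3185 in NC, so that most peaks among them rest on a small difference from NC. Of 39 genes 32 were tested, 11 were peaks and 8 were called higher, with a median difference of 5.16 from mESC and 0.38 from NC. None was called lower by limma. At an unadjusted p under 0.05 in both contrasts 0 of 32 were lower, against 554 of all 20232 tested genes. The low mESC values left little room for a Hox gene to be lower, so these counts say little. The calls lay towards the 3′ ends of the clusters: 7 of the 12 genes with paralog numbers 1 to 4 were called, 1 of 11 with numbers 5 to 8, and 0 of 9 tested with numbers 9 to 13. None of those 9 passed at an unadjusted p under 0.05 in both contrasts either (0 of 9). This grouping was chosen after the values were seen. The median difference from NC was 0.86 for numbers 1 to 4, 0.04 for numbers 5 to 8 and 0.225 for numbers 9 to 13. The grouping also depended on the NC libraries. Without NC replicate 2, Hoxa3, Hoxb4 and Hoxb6 lost their calls, while Hoxb7, Hoxb8 and Hoxb9 were called. The list's median difference from NC was 0.07 without NC replicate 1 and 0.68 without NC replicate 2. Leaving out either NPC replicate gave 3 called Hox genes.

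Genes at the 3′ end of the clusters fell back in NC. Hoxb1, an early marker of the hindbrain, was at 21.3 and 14.2 TPM in NPC, with 0 and 0.427 in mESC and 1.25 and 3.94 in NC, a difference of 2.47 from NC (SE 0.44, adjusted p = 0.0113). Hoxd1, under the floor, was at 6.67 and 11.5 TPM in NPC, with 0.187 and 0.222 in mESC and 0.908 and 1.23 in NC. In both genes the NPC values lay above every other value.

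In the next paralog groups NC kept a larger share of the NPC level. Hoxb2, a hindbrain gene, was at 166 and 211 TPM in NPC, with 0.374 and 0.682 in mESC and 66.3 and 105 in NC, a difference of 1.15 from NC. Hoxd4 was at 237 and 271 TPM in NPC, with 0.239 and 0.0725 in mESC and 95.2 and 101 in NC, a difference of 1.36 from NC. For Hoxa3 and Hoxb4 the NPC values of 133 and 163 and of 236 and 219 TPM stood against 91.3 and 71.2 and 138 and 128 in NC, with differences of 0.86 and 0.77. All 4 passed against both stages. Hoxb6 (ENSMUSG00000000690.5, chromosome 11, 96292476 to 96301569, plus strand) had the highest TPM of the Hox genes in both NPC libraries. It was at 595 and 589 TPM in NPC, with 0 and 0.142 in mESC and 371 and 434 in NC, and differed from NC by 0.56 (SE 0.15, adjusted p = 0.03799). Hoxb3, Hoxb7, Hoxb8 and Hoxa4 were peaks that were not called against NC. For Hoxb7 the NC libraries lay apart, at 60.7 and 124 TPM, as they did for Hoxb8, at 113 and 263. Hoxa2, Hoxa5, Hoxa6, Hoxb5, Hoxc4, Hoxc5 and Hoxd3 were no peaks, with NPC and NC ranges that overlapped or NC above NPC. Hoxb2, Hoxa3, Hoxa4, Hoxd4 and Hoxb3 overlap antisense genes.

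Libraries of the same stage differed at the 5′ end. Hoxb9 was at 198 and 490.3 TPM in NPC and 32.04 and 366 in NC, with replicate 2 the higher in each stage. The genes with numbers 9 to 13 summed to 203 and 503 TPM in NPC and 33.1 and 376 in NC. In mESC the highest of these was Hoxa10, at 8.52 and 26.9 TPM, against 0.614 and 1.71 in NPC. Among 9 Hox cofactors, which bind DNA together with Hox proteins, 2 were called higher, among them Pbx2 at 190.2 and 191 TPM in NPC, with 34.2 and 36.03 in mESC and 100.4 and 109 in NC. With either NPC replicate left out, 0 of the 9 were called, and without either NC replicate 1 was. The microRNA gene Mir10a lies in the Hoxb cluster and was chosen after its values were seen. It was listed at 0 in mESC and was at 16.9 and 14.1 TPM in NPC and 4.47 and 8.59 in NC. It was called higher, but not when 0.5 in place of 1 was added to the TPM. Whether its reads came from the microRNA or from Hoxb transcripts around it was not tested.

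**Figure D3:**
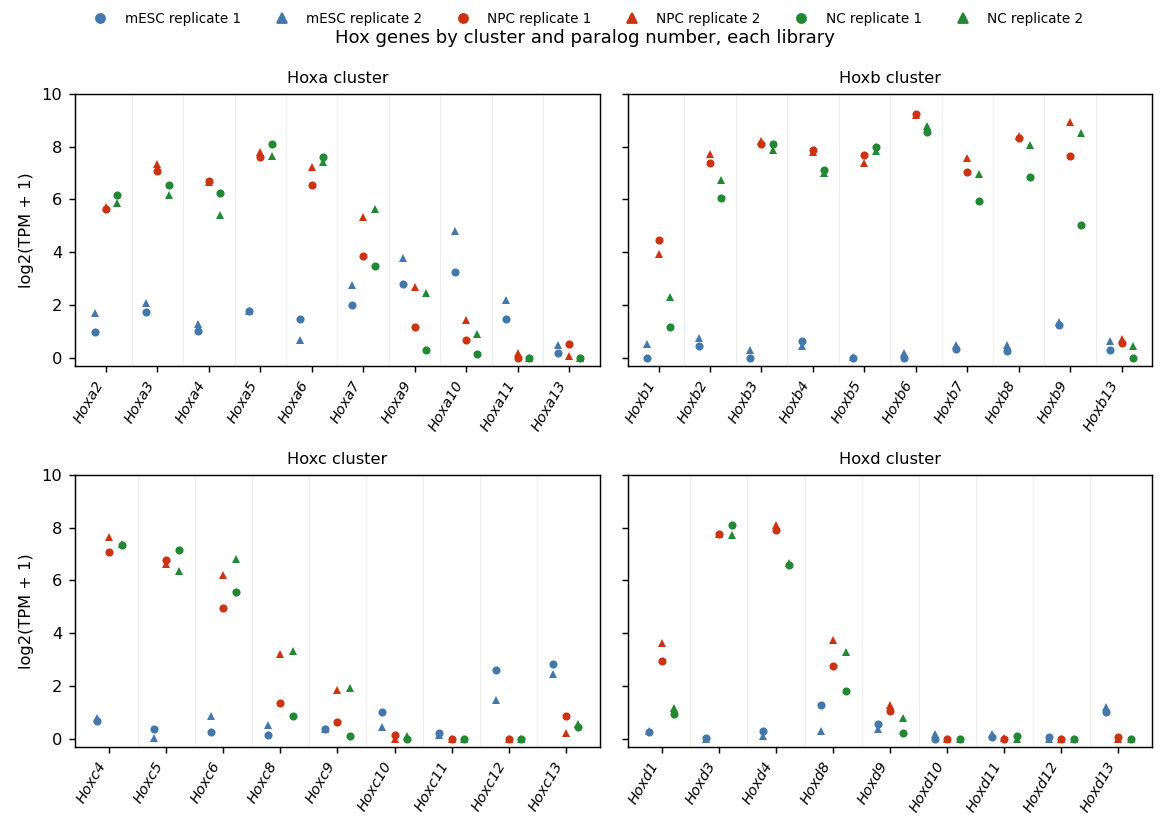
Level of Hox genes in log2(TPM + 1), 1 panel for each cluster with genes in order of paralog number, and 1 point for each library (blue for mESC, red for NPC, green for NC). In Hoxb1 and Hoxd1 the green NC points fall back towards the blue mESC points, while in Hoxa5, Hoxc4 and Hoxd3 the red and green points overlap.

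WNT pathway genes were called higher in NPC at 12 of 41 tested, with 14 peaks of 44 listed and median differences of 1.69 and 0.94. None was called lower by limma. At an unadjusted p under 0.05 in both contrasts 0 of 41 were lower, against 554 of all 20232 tested genes. A list of 41 would hold few at that share, and several members were near 0 TPM in mESC, so this says little. Leaving out either NPC replicate gave 3 calls. Of the ligands, Wnt1, a signal of the dorsal midline, was at 29.5 and 91.2 TPM in NPC, with 0 and 0.00518 in mESC and 0.312 and 3.42 in NC, with NPC replicate 2 over replicate 1 (differences 5.73 and 4.46, adjusted p = 0.00123 and 0.00767). The ligand Wnt3a was at 1.74 and 5.54 TPM in NPC and Wnt10b at 2.88 and 7.46, and both were below 1 TPM in every other library. All 3 ligands were higher in NPC replicate 2. Wnt5a was instead at 6.78 and 6.07 TPM in NPC and 68.9 and 44.1 in NC (adjusted p = 0.00315).

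Receptors and inhibitors of the pathway were called as well. Lgr5, a receptor for R-spondins and a WNT target, was at 15.3 and 18.6 TPM in NPC, with 0.0277 and 0.0767 in mESC and 4.92 and 2.16 in NC. The receptor Fzd10 was at 28.8 and 77.7 TPM in NPC, with 14.6 and 13.6 in mESC and 13.8 and 16.02 in NC, and its relative Fzd8 at 25.4 and 33.95 TPM in NPC, with 3.32 and 2.29 in mESC and 13.4 and 13.3 in NC. For Fzd10 NPC replicate 2 was much the higher, and for Fzd8 the replicates of each stage lay close together. The ubiquitin ligase Rnf43, which removes WNT receptors, was at 7.75 and 6.99 TPM in NPC, with 0.6903 and 0.554 in mESC and 1.24 and 2.05 in NC. The secreted inhibitor Sfrp2 was at 206 and 95.8 TPM in NPC, with 17.5 and 18.8 in mESC and 23.5 and 14.8 in NC (differences 2.89 and 2.85), and Wif1, another, was at 1.898 and 4.57 TPM in NPC and below 1 elsewhere. The transcription factor Tcf7l2 was at 45.6 and 32.9 TPM in NPC, against 7.97 and 5.59 in mESC and 11.4 and 22.3 in NC, the lower NPC value lying above both NC values. Axin2, a general readout of WNT activity, was a peak at 26.3 and 41.4 TPM in NPC, 8.27 and 7.27 in mESC and 19.03 and 23.9 in NC that did not pass against NC (adjusted p = 0.137).

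Hedgehog pathway genes were called higher at 5 of 15 tested, with 7 peaks of 17 listed and medians of 1.504 and 0.88. Without NPC replicate 1 the count was 1 and without NPC replicate 2 it was 2. The called ligand was Ihh, at 19.5 and 15.3 TPM in NPC, with 4.14 and 0.949 in mESC and 0.288 and 1.397 in NC, while Shh was at 0.795 and 1.02 TPM in NPC and was not tested. Smo, the signal transducer, was at 132 and 135 TPM in NPC, with 46.03 and 46.8 in mESC and 79.5 and 65.01 in NC, and the coreceptor Gas1, which binds Hedgehog ligands, at 130.4 and 203 TPM in NPC, with 3.59 and 3.32 in mESC and 42.97 and 48.9 in NC. Hhip, a Hedgehog-binding inhibitor and target, was at 9.44 and 11.4 TPM in NPC, with 1.64 and 2.01 in mESC and 1.94 and 2.64 in NC. Gli3, which acts mainly as the repressor of the pathway, was at 39.8 and 39.7 TPM in NPC, with 7.37 and 8.31 in mESC and 20.8 and 23.6 in NC. Gli3 overlaps Gm6556 on the opposite strand. In all 5 called genes the NPC values lay above every other value. The targets Gli1 and Ptch1 were less distinct: Gli1 was at 45.5 and 28.9 TPM in NPC and 47.2 and 37.8 in mESC and 3.201 and 0.5895 in NC, and Ptch1 was not called against mESC (adjusted p = 0.112).

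In the BMP, Nodal and TGF-beta list 5 of 32 tested genes were called higher and 2 lower, with 8 peaks and 2 dips of 35 listed. With either NPC replicate left out the counts were 1 higher and 1 lower, and without NC replicate 2 they were 3 and 1. Id3, an inhibitor of basic helix-loop-helix factors and a BMP target, was at 345 and 377 TPM in the NPC libraries, compared with 13.8 and 19.99 in mESC and 59.8 and 28.1 in NC. The 3 stages did not overlap, with differences of 4.36 from mESC and 3.10 from NC (SE 0.35 for each, adjusted p = 0.000255 and 0.00368). Id1 and Id2, its paralogs, were peaks that were each called against only 1 stage. Id1, at 111 and 115 TPM in NPC, was not called against mESC (adjusted p = 0.126), and Id2, at 167 and 199.8, was not called against NC (adjusted p = 0.149). The ligand Bmp7 was at 27.3 and 40.5 TPM in NPC, with 4.06 and 2.303 in mESC and 10.4 and 15.02 in NC. The receptor Bmpr1a was at 74.001 and 74.4 TPM in NPC, with 39.7 and 29.02 in mESC and 46.9 and 42.3 in NC, and the inhibitory Smad6 at 12.1 and 14.9 TPM in NPC, with 3.42 and 5.38 in mESC and 3.07 and 3.78 in NC. Bmp4 was a dip at 6.305 and 6.03 TPM against 7.02 and 8.91 in NC and 112 and 73.7 in mESC and was not called against NC (adjusted p = 0.401). The ligands Inhbb, of the activin branch, and Tgfb1 were called lower, though under the floor. Inhbb was at 0.0619 and 0 TPM in NPC, with 13.2 and 8.47 in mESC and 8.17 and 4.41 in NC, and Tgfb1 at 2.32 and 2.34 TPM in NPC, with 12.2 and 7.1998 in mESC and 7.11 and 10.3 in NC.

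In the Notch list 3 of 25 tested genes were called higher, 7 were peaks and Rbpj was a dip, with medians of 1.59 and -0.19. The count was 2 without either NPC replicate in turn and 7 without NC replicate 1. Dtx4, a ubiquitin ligase of the pathway, was at 233 and 237 TPM in NPC, with 2.4998 and 3.02 in mESC and 48.9 and 38.2 in NC. Lfng, a sugar transferase that changes which ligands Notch answers to, was at 70.5 and 58.4 TPM in NPC, with 5.33 and 5.46 in mESC and 19.3 and 13.03 in NC, and Hes1, a Notch target, at 63.99 and 66.1 TPM in NPC, with 38.9 and 37.3 in mESC and 20.6 and 19.3 in NC. For Dtx4 the differences were 5.97 from mESC and 2.41 from NC (SE 0.18 for each, adjusted p = 1.39e-05 and 0.00286). Hes1 differed from mESC by 0.76 and from NC by 1.66. The ligands did not peak: Dll1 was at 86.8 and 113 TPM in NPC and 103 and 124 in NC, and Dll3 was at 35.04 and 45.03 in NPC and 137 and 97.4 in NC.

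Hes5, the Notch target most typical of neural progenitors, had the highest TPM of the list in both NPC libraries. It was at 359.5 and 287 TPM in NPC, with 0.941 and 0.772 in mESC and 131 and 13.7 in NC. The NC libraries were far apart, and the difference from NC of 2.88 (SE 0.89) did not pass (adjusted p = 0.0581). Hes5 overlaps Gm20421 on the opposite strand. Its promoter is shown because it holds the site by which RBPJ, the DNA-binding partner of Notch, is known to bind, spelled GTGGGAA, on each strand (capitals).
Hes5, chr4:154960673-154960922, plus strand: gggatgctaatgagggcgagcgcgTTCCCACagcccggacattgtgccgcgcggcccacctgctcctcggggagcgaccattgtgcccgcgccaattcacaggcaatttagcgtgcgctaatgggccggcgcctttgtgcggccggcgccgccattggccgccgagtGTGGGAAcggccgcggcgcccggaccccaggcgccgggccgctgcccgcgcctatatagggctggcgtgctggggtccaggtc
The matches begin 226 and 83 bases before the start. GTGGGAA was in 1779 of 32851 windows (5.42%) and in 63 of 1134 windows of peaks (5.56%), In the Notch list 3 of 23 windows held it, those of Hes5, Hey2 and Lfng.

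In the FGF list the receptor Fgfr2 was called higher at 67.7 and 82.3 TPM in NPC, with 9.85 and 10.03 in mESC and 19.3 and 26.7 in NC, while 2 feedback inhibitors, Spry4 and Spry2, were called lower. Spry4, an inhibitor that FGF signalling itself switches on, was at 1.73 and 1.87 TPM in the NPC libraries, compared with 107 and 113 in mESC and 13.4 and 26.9 in NC. Its differences were -5.31 from mESC and -2.84 from NC (SE 0.31 for each, adjusted p = 8.52e-05 and 0.00354). Its paralog Spry2 was at 15.7 and 18.2 TPM in NPC, with 132 and 127 in mESC and 41.996 and 61.4 in NC, and was called as well. Of 26 listed genes 9 were dips and 3 were peaks, the feedback phosphatase Dusp5 among the peaks. The dips also included Dusp6 at 35.96 and 42.6 TPM, Etv4 at 26.98 and 26.4 and Etv5 at 14.7 and 11.3; these 3 were called against mESC and not against NC. With 1 of 25 tested genes called higher and 2 lower, the list medians were -0.09 and -0.15. Beside 2.48% of all tested genes called higher and 1.39% lower, these counts say little about the list as a whole. Without NPC replicate 1, 1 gene was called lower, and without NC replicate 1, 4 were.

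**Figure D4:**
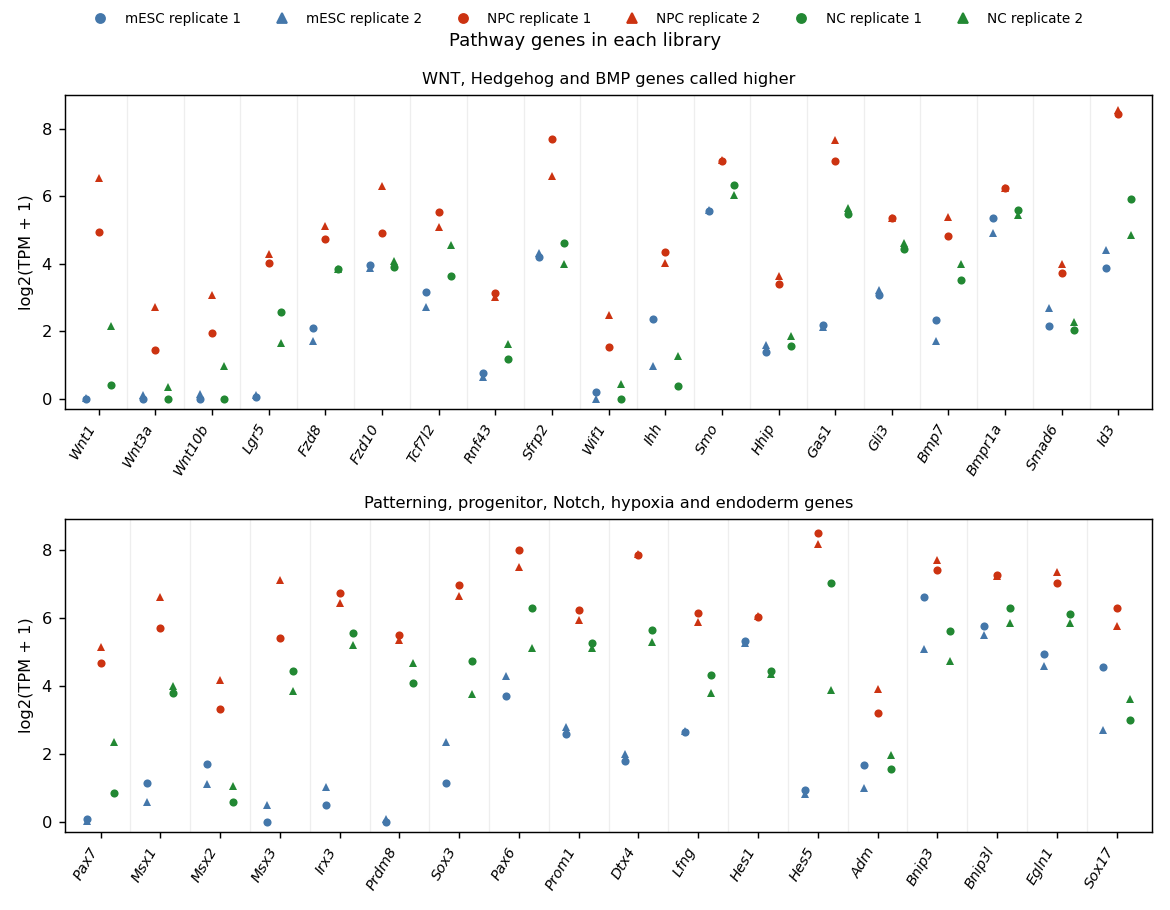
Level in log2(TPM + 1) of called WNT, Hedgehog and BMP genes (upper panel) and of patterning, progenitor, Notch, hypoxia and endoderm genes (lower panel), with 1 point for each library. The legend gives colour for stage and shape for replicate. The red NPC points top each gene, by a wide margin in Pax7 and Wnt1 and narrowly in Hes1 and Bmpr1a. Hes5, which was not called, shows NC replicate 1 far above NC replicate 2.

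Genes that give neural tube progenitors their dorsal or ventral identity were called higher at 9 of 29 tested, with 9 peaks and 1 dip of 30 listed and medians of 2.36 and 0.50. Without NPC replicate 1 the count was 4 and without NPC replicate 2 it was 3. The called genes were Pax7, Msx1, Msx2, Msx3, Irx3, Prdm8, Lmx1a, Foxa1 and Olig1. Pax7, a dorsal paired-box factor, was at 24.7 and 34.9 TPM in the NPC libraries, compared with 0.0651 and 0.0286 in mESC and 0.825 and 4.09 in NC. The differences were 4.86 from mESC and 3.31 from NC (SE 0.49 for each, adjusted p = 0.000585 and 0.00662). The homeobox genes Msx1, Msx2 and Msx3, which answer to BMP in the dorsal neural tube, were all higher in NPC replicate 2. Msx1 was at 51.6 and 98.3 TPM in NPC, with 1.22 and 0.522 in mESC and 13.03 and 14.95 in NC. Msx3 was at 41.8 and 138 TPM in NPC, with 0 and 0.416 in mESC and 20.6 and 13.4 in NC, and Msx2 at 9.13 and 17.3 TPM in NPC and 0.499 and 1.11 in NC. Irx3, which splits the neural tube into domains, was at 105 and 86.03 TPM in NPC, with 0.419 and 1.06 in mESC and 45.9 and 35.8 in NC. Prdm8, a histone-modifying factor of interneurons, was at 44.5 and 40.1 TPM in NPC, with 0 and 0.07405 in mESC and 16.2 and 24.6 in NC. Both overlap antisense genes. Lmx1a, of the roof plate, was at 3.98 and 2.9005 TPM in NPC, with 0.275 and 0.0913 in mESC and 0 and 0 in NC. Of ventral genes, Foxa1 was at 10.5 and 8.83 TPM in NPC, with 0.0824 and 0.782 in mESC and 0.107 and 0.762 in NC, and Foxa2 was a peak at 24.3 and 17.4 TPM in NPC that did not pass against NC (adjusted p = 0.0582). Dbx1, an intermediate factor, was listed at 0 in mESC and was at 311 and 176 TPM in NPC and 156 and 87.8 in NC (adjusted p = 0.08405 against NC). Lmx1b was instead higher in NC, at 36.8 and 38.98 TPM against 2.35 and 1.98 in NPC.

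Of 20 general neural progenitor genes 6 were peaks, 1 was a dip (Tnc) and 3 were called higher. Sox3, a pan-neural SOX factor, was at 126 and 100.2 TPM in NPC, with 1.24 and 4.12 in mESC and 25.6 and 12.7 in NC. Pax6, which specifies progenitors of cortex and spinal cord, was at 257 and 181 TPM in NPC, with 12.2 and 18.7 in mESC and 78.5 and 33.5 in NC, and Prom1, a membrane protein of the apical surface, at 74.9 and 60.4 TPM in NPC, with 5.03 and 6.004 in mESC and 37.7 and 33.6 in NC. With either NPC replicate left out 0 were called, without NC replicate 1, 5 were, and without NC replicate 2, 1 was. Nes was at 102 and 109.6 TPM in NPC and 84.2 and 119.8 in NC, which overlap, while Vim, an intermediate filament, was higher in NC at 1385 and 1354 TPM against 604 and 797 in NPC. Sox2 was highest in mESC, at 259.8 and 257 TPM against 71.3 and 88.3 in NPC. Of 21 proneural genes, which start neurogenesis, 0 were peaks, and their median difference was -1.40 from NC. Neurog1 was at 128 and 161 TPM in NPC and 141 and 74.97 in NC, and Nhlh2 at 58.8 and 75.8 in NPC and 207 and 237 in NC. Ptf1a, at 1.96 and 8.43 TPM, and Olig2, at 5.97 and 4.099, were called higher under the floor. Once either NPC replicate was left out, 0 proneural genes were called.

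A set of genes known to respond to low oxygen had its highest summed level in NPC. Of 20 tested 4 were called higher and 10 were peaks, with medians of 1.35 and 0.86, and none was called lower by limma. At an unadjusted p under 0.05 in both contrasts 0 of 20 were lower, against 554 of all 20232 tested genes. So few genes would hold few lower ones at that share, and the 0 says little. Adm, a vasodilator peptide, was at 8.23 and 14.2 TPM in NPC, with 2.24 and 1.02 in mESC and 1.93 and 2.92 in NC. Bnip3, which marks mitochondria for removal, was at 171 and 210.3 TPM in NPC, with 96.7 and 32.9 in mESC and 48.6 and 25.7 in NC, and its paralog Bnip3l at 153 and 151 TPM in NPC, with 53.005 and 44.6 in mESC and 77.4 and 56.5 in NC. Egln1, the oxygen sensor that destabilises the hypoxia-inducible factors, was at 131 and 164 TPM in NPC, with 29.5 and 22.9 in mESC and 68.9 and 57.4 in NC. Of these, Bnip3 had the widest spread within mESC. The list summed to 1446 and 1761 TPM in NPC, with 853 and 424 in mESC and 933 and 783 in NC. Without mESC replicate 1, 9 genes were called higher, and with either NPC replicate left out 0 were (6 in all libraries at an unadjusted p under 0.05 in both contrasts). Vegfa, the vascular growth factor, was a peak at 243 and 257 TPM and was not called against NC.

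Glycolysis genes were high in mESC and NPC and lower in NC, and of 22 tested Gpi1 was called higher, at 786 and 1102 TPM in NPC, with 565 and 379 in mESC and 324 and 253 in NC. As 2.48% of all tested genes were called higher, 1 call among 22 says little about the list. The glycolysis genes summed to 16342 and 17818 TPM in NPC, with 18292 and 14866 in mESC and 6366 and 3893 in NC. The glucose transporter Slc2a1 was a peak at 998 and 1096 TPM, against 577 and 304 in mESC (adjusted p = 0.0521) and 22.7 and 53.7 in NC. Ldha, lactate dehydrogenase, was a peak at 1643 and 1879.6 TPM that was not called against mESC (adjusted p = 0.165). The count was 3 without mESC replicate 1, 4 without either NC replicate, and 0 without mESC replicate 2 or NPC replicate 2. Slc2a1 overlaps Gm12868 on the opposite strand. Pdk3, which restrains pyruvate oxidation, is on no list and was called higher at 94.2 and 91.8 TPM in NPC, against 30.9 and 32.8 in mESC and 20.1 and 21.3 in NC. It was chosen after its values were seen.

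Markers of other lineages included peaks as well. In the endoderm list 4 of 17 tested genes were called higher, among them Sox17, Foxa1 and Apoa1, and 4 of 20 were peaks. Sox17, a founding factor of endoderm, was at 77.7 and 53.5 TPM in NPC, with 22.6 and 5.48 in mESC and 6.95 and 11.3 in NC. The list's sum was 359 and 239 TPM in NPC, with 372 and 87.5 in mESC and 46.8 and 92.5 in NC, with Alb and Cer1 at 0 in both NPC libraries. The sum in mESC replicate 1 was thus above both NPC sums, and that in mESC replicate 2 below them. Left out in turn, mESC replicate 1 gave 6 calls, mESC replicate 2 gave 2, NPC replicate 1 gave 0, and NPC replicate 2 and each NC replicate gave 1. The mesoderm list summed to 206 and 180 TPM in NPC, with 203 and 198 in mESC and 123 and 145 in NC. Of its 17 tested genes Meox1, Foxc2, Tbx1 and Nkx1-2 were called, with Meox1 at 17.3 and 16.9 TPM in NPC, with 0.637 and 0.684 in mESC and 3.18 and 5.18 in NC, while Msgn1, Myf5, Myod1 and Cdx4 were at 0 in both NPC libraries. Without NPC replicate 1, 0 of these were called, and without NPC replicate 2, 2 were. The endothelium and blood list summed to 69.1 and 47.6 TPM in NPC, with 61.9 and 39.1 in mESC and 17.8 and 27.3 in NC. Of its 10 tested genes Flt1, a VEGF receptor, was called at 41.3 and 31.5 TPM in NPC, with 2.28 and 1.23 in mESC and 10.6 and 9.04 in NC. Pecam1 was at 1.57 and 1.54 TPM in NPC, and Gata1 and Aif1 were at 0 in both. The part of such cells in the NPC peaks was not tested.

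Several of the largest peaks lie outside the signalling and patterning lists. Arg1 (ENSMUSG00000019987.8, chromosome 10, 24915208 to 24927470, minus strand), the urea cycle enzyme arginase, was listed at 0 in mESC and was at 60.7 and 40.8 TPM in NPC and 0.715 and 2.28 in NC, a difference of 4.42 from NC (adjusted p = 0.00293). Unc5a (ENSMUSG00000025876.14, chromosome 13, 54949411 to 55006018, plus strand), a netrin receptor of growing axons, was at 186 and 169 TPM in NPC, with 0.367 and 0.336 in mESC and 19.98 and 19.8 in NC. Its differences were 7.04 from mESC and 3.09 from NC (SE 0.18 for each, adjusted p = 7.62e-06 and 0.00206). Hk3, a hexokinase gene listed at 0 in mESC and at 56.4 and 39.6 TPM in NPC, lies on the opposite strand, and its model and that of Unc5a overlap only at their ends. Metrn (ENSMUSG00000002274.11, chromosome 17, 25794571 to 25797136, minus strand), a secreted factor of glia and axons, was at 396 and 407 TPM in NPC, with 21.6 and 24.6 in mESC and 64.1 and 23.1 in NC. The noncoding gene Gm26694 overlapping it on the other strand was at 332 and 372 TPM in NPC. Fndc5, the precursor of the hormone irisin, was at 109 and 159 TPM in NPC, with 1.83 and 2.33 in mESC and 12.9 and 12.5 in NC, and the noncoding gene Gm15906, whose model ends just before Fndc5 begins, was at 20.4 and 25.2 TPM in NPC and listed at 0 in the other 4 libraries.

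Further genes of the leading 25 were Scube2, a secreted protein that helps release Hedgehog, at 40.4 and 33.1 TPM in NPC, with 6.13 and 1.395 in mESC and 0.986 and 2.05 in NC. Pitx1, a homeobox factor of hindlimb and pituitary, was at 45.8 and 32.6 TPM in NPC, with 0.445 and 0.125 in mESC and 4.86 and 2.604 in NC. The carbonic anhydrase Car14 was at 115 and 113 TPM in NPC, with 2.67 and 2.86 in mESC and 12.7 and 11.1 in NC, and its relative Car3 at 39.9 and 20.6 TPM in NPC, with 1.04 and 2.998 in mESC and 1.04 and 6.14 in NC. Car14 overlaps Aph1a on the opposite strand. Cpm, a carboxypeptidase, was at 33.3 and 30.9 TPM, Fndc3c1 at 68.9 and 51.1, S100g, a calcium-binding protein, at 26.9 and 17.8, Grrp1 at 39.6 and 23.7 and Nepn at 33.1 and 12.3. In all of these the lower NPC value was above each of the 4 other values. S100g was listed at 0 in mESC replicate 2 and NC replicate 2, and Nepn in mESC replicate 2 and NC replicate 1. Among the most abundant peaks, chosen after their values were seen, Mdk, the heparin-binding growth factor midkine, was at 2599 and 2092 TPM in NPC, with 488 and 385 in mESC and 498 and 544 in NC, with differences of 2.43 and 2.16. Igdcc3, a membrane protein of the immunoglobulin superfamily, was at 429 and 349.5 TPM in NPC, with 6.35 and 7.76 in mESC and 41.6 and 66.5 in NC. Gpc3, a glypican that holds growth factors at the cell surface, was at 259 and 272 TPM in NPC, with 132 and 48.95 in mESC and 37.9 and 45.6 in NC, with the mESC libraries apart.

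Lists of cell division genes held few calls, beside 2.48% of all tested genes called higher and 1.39% lower. Of 36 DNA replication genes 1, Rrm1, was called higher and 0 lower, and Rrm1 lost its call without either NPC replicate. Of 30 mitosis genes 3 were peaks, and 0 were called in either direction by limma, and 0 at an unadjusted p under 0.05 in both contrasts. Their medians were -0.31 from mESC and 1.23 from NC. In the G1 list of 28, Ccnd2, E2f5 and Rbl1 were called higher, 0 without NPC replicate 1 and 1 without NPC replicate 2. Ccnd2, the cyclin D of neural progenitors, was at 601 and 482 TPM in the NPC libraries, compared with 17.1 and 38.5 in mESC and 119.6 and 139.7 in NC. NC lay between mESC and NPC, and the differences were 4.33 from mESC and 2.05 from NC (SE 0.35 for each, adjusted p = 0.000257 and 0.00987). Of 27 imprinted genes tested, 3 were called higher. Grb10, which restrains growth factor receptors, was at 131 and 114 TPM in NPC, with 13.4 and 11.001 in mESC and 41.7 and 51.1 in NC. Plagl1, a zinc finger factor, was at 146 and 222 TPM in NPC, with 5.06 and 5.08 in mESC and 75.1 and 86.7 in NC, and Peg10, derived from a retrotransposon, at 987 and 640.2 TPM in NPC, with 314 and 266 in mESC and 261 and 474 in NC. Igf2, a growth factor, was instead higher in NC, at 879 and 871 TPM against 267 and 385 in NPC. Without NPC replicate 1, NPC replicate 2 or NC replicate 1, 1 imprinted gene was called.

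In the list of actin, SRF and YAP targets 8 of 34 tested genes were called lower, 15 were dips and the medians were -0.43 from mESC and -1.22 from NC. None was called higher by limma. At an unadjusted p under 0.05 in both contrasts 0 of 34 were higher, against 819 of all 20232 tested genes. That share would give few among 34, so the 0 says little. With any of the 6 libraries left out the count of lower calls lay between 6 and 12, the 12 without NC replicate 1. The 8 were S100a6, S100a10, Anxa1, Lgals3, Tagln, Acta2, Tpm2 and Lmna.

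S100a6 (ENSMUSG00000001025.7, chromosome 3, 90612882 to 90624181, plus strand), a calcium-binding protein of the S100 family, was at 1.24 and 1.45 TPM in the NPC libraries, compared with 49.5 and 29.9 in mESC and 45.8 and 195 in NC. NC replicate 2 was the highest and the NPC pair far below the other stages, with differences of -4.08 from mESC and -5.35 from NC (SE 0.63 for each, adjusted p = 0.00308 and 0.00394). Its family member S100a10, which pairs with annexins at the membrane, was at 41.4 and 21.1 TPM in NPC, with 288 and 247 in mESC and 102 and 157 in NC. Anxa1, an annexin, was at 1.09 and 0.779 TPM in NPC, with 12.9 and 8.15 in mESC and 32.95 and 78.9 in NC, and Lgals3, a galectin, at 0.412 and 0.522 TPM in NPC, with 14.4 and 9.57 in mESC and 2.92 and 19.8 in NC. In these 4 genes NC replicate 2 was above NC replicate 1. Of the contractile proteins, Tagln, of smooth muscle, was at 8.13 and 9.58 TPM in NPC, with 57.8 and 46.9 in mESC and 89.5 and 172 in NC. Acta2, smooth muscle actin, was at 6.13 and 11.5 TPM in NPC, with 51.3 and 27.8 in mESC and 184 and 213 in NC, and Tpm2, a tropomyosin, at 31.9 and 30.8 TPM in NPC, with 50.04 and 56.4 in mESC and 64.7 and 69.2 in NC. Lmna, the nuclear lamin of stiff tissues, was at 12.3 and 17.9 TPM in NPC, with 94.5 and 36.00000 in mESC and 81.1 and 104 in NC. For Tagln, Acta2 and Tpm2 both NC values lay above both mESC values, and for S100a10 both mESC values lay above both NC values. Tagln overlaps Pcsk7 on the opposite strand.

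Not every gene of the list dipped. Actb was a dip at 2488 and 2630.01 TPM that did not pass (adjusted p = 0.0831 and 0.161), while Actg1, the other cytoplasmic actin, was at 1827 and 1971 TPM in NPC, with 997 and 1290.04 in mESC and 2227 and 2454 in NC, with NPC between the other stages. Outside the list, Ctgf, a YAP target chosen after its values were seen, was at 39.6 and 29.9 TPM in NPC, with 54.9 and 37.6 in mESC and 33.99 and 181 in NC and no dip. Among dips outside the list, Emp1, a membrane protein, was at 2.51 and 3.81 TPM in NPC, with 57.9 and 35.8 in mESC and 95.1 and 71.4 in NC. Ptrf, which builds caveolae, was at 2.55 and 3.26 TPM in NPC, with 26.1 and 18.9 in mESC and 25.2 and 38.4 in NC, and Capg, which caps actin filaments, at 2.15 and 0.947 TPM in NPC, with 40.5 and 33.95 in mESC and 12.6 and 13.1 in NC. Emp1 differed by -3.50 from mESC and -4.34 from NC (SE 0.30 for each, adjusted p = 0.000304 and 0.00286). Spp1, the secreted matrix protein osteopontin, was at 5.23 and 5.99 TPM in NPC, with 294 and 138 in mESC and 42.96 and 156 in NC, and Timp1, an inhibitor of matrix proteases, at 12.6 and 7.61 TPM in NPC, with 89.1 and 44.4 in mESC and 46.9 and 42.5 in NC. Beside these dips, the mesenchymal markers Pdgfrb and Prrx1 were higher in NC than in NPC, Pdgfrb at 4.92 and 8.71 TPM in NPC, with 1.83 and 1.11 in mESC and 46.8 and 18.9 in NC and Prrx1 at 3.29 and 3.82 TPM in NPC, with 0.124 and 0.105 in mESC and 16.1 and 11.1 in NC, while the whole list of 29 mesoderm and mesenchyme genes summed to less in NC than in NPC, as given above. Their part in the result was not tested.

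Immediate early genes, which cells switch on within minutes of a stimulus, included 8 dips and 2 peaks of 28 listed. The peaks were Ier3 and Srf. Of 26 tested, 3 were called lower and 0 higher. Egr1, a zinc finger factor, was at 2.08 and 2.74 TPM in NPC, with 4.904 and 11.5 in mESC and 17.8 and 22.7 in NC. Junb, of the AP-1 factors, was at 7.95 and 6.88 TPM in NPC, with 44.9 and 55.1 in mESC and 15.002 and 15.3 in NC, and Zfp36, which speeds the decay of messages, at 4.33 and 4.88 TPM in NPC, with 21.8 and 23.5 in mESC and 7.84 and 8.71 in NC. In Junb and Zfp36 the mESC libraries were highest and in Egr1 the NC libraries. With either NPC replicate left out 0 of the list were called (5 in all libraries at an unadjusted p under 0.05 in both contrasts), without mESC replicate 2 or NC replicate 2, 1 was, without mESC replicate 1, 2 were, and without NC replicate 1, 5 were. Jun did not dip, at 7.32 and 8.25 TPM in mESC and 52.1 and 53.4 in NPC. Junb overlaps Prdx2 on the opposite strand.

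Of 24 pluripotency genes 3 were dips, Esrrb, Klf2 and Klf5. Esrrb, a nuclear receptor of naive stem cells, was at 1.29 and 1.47 TPM in NPC, with 564 and 546 in mESC and 12.3 and 8.44 in NC, and was called lower with differences of -7.87 and -2.24. It was the 1 gene of 24 called, and 3 were without NC replicate 1. Klf2 was at 0.409 and 0.634 TPM in NPC, with 139.99 and 137 in mESC and 0.714 and 2.37 in NC and was not called against NC (adjusted p = 0.2097). Zfp57, which protects the methylation of imprinted loci, was at 60.1 and 84.7 TPM in the NPC libraries, compared with 444 and 482 in mESC and 268 and 308 in NC. Its differences were -2.68 from mESC and -1.99 from NC (SE 0.19 for each, adjusted p = 0.000159 and 0.00314). Of 27 DNA methylation genes, Apobec1, a cytidine deaminase, and Gadd45b, a stress gene linked to demethylation, were called lower beside Zfp57. Apobec1 was at 1.04 and 1.51 TPM in NPC, with 23.2 and 15.7 in mESC and 11.97 and 3.66 in NC, and Gadd45b at 5.06 and 4.16 TPM in NPC, with 14.9 and 12.9 in mESC and 9.198 and 8.15 in NC. With any of the libraries left out 1 gene of that list was called, or 2 without NC replicate 2. Stat3, through which LIF acts, and its target Socs2 were chosen after their values were seen and were called lower. Stat3 was at 36.6 and 40.2 TPM in NPC, with 90.4 and 81.3 in mESC and 175 and 95.4 in NC, and Socs2 at 14.7 and 22.1 TPM in NPC, with 88.8 and 107 in mESC and 119 and 35.8 in NC, with NC replicate 1 the higher of its pair in both. Socs2 lost its call with FPKM, under either other scaling, with the replicate block and with any library but NC replicate 2 left out, and its smaller difference was -0.95 without NC replicate 1. Stat3 lost its call with either mESC or either NPC replicate left out. Stat3 overlaps Stat5a on the opposite strand.

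Lists of stress genes held few calls, all of them lower. Over all tested genes 1.39% were called lower, so 1 of 23 and 2 of 21 lay above that share, but on few genes. Of 23 ATF4, amino acid and serine genes 1 was called lower and 0 higher, with 3 dips and 1 peak, and 0 were called without either NPC replicate. That gene, Nupr1, a nuclear stress protein, was at 1.296 and 0 TPM in NPC, with 36.9 and 12.1 in mESC and 9.44 and 35.7 in NC. Of 21 unfolded protein and heat shock genes Hspb1 and Mt2 were called lower and 0 higher, with 4 dips and 1 peak; 1 was called lower without NPC replicate 1 and 0 without NPC replicate 2. Hspb1, a small heat shock protein, was at 5.54 and 6.53 TPM in NPC, with 233 and 248 in mESC and 13.3 and 33.3 in NC, and its pseudogene Hsp25-ps1, named as its near copy, was at 0.795 and 0.166 TPM in NPC, with 95.1 and 95.8 in mESC and 4.84 and 7.28 in NC, so that reads may be shared between the copies. Mt2, a metallothionein, was at 18.6 and 11.5 TPM in NPC, with 209 and 149 in mESC and 52.02 and 42.9 in NC. Cpt1a, which admits fatty acids to mitochondria, was at 5.11 and 7.68 TPM in NPC, with 64.99 and 39.3 in mESC and 28.4 and 55.8 in NC (differences -2.82 and -2.49). Of 31 cholesterol and lipid genes 6 were dips and 3 were peaks. The dips were enzymes of sterol synthesis, of which Fdft1 was called lower at 58.1 and 58.5 TPM in NPC, with 82.6 and 88.5 in mESC and 90.5 and 89.1 in NC. Among the genes called higher were Stard4, which carries sterols, and Lpl, a lipase. Stard4 was at 44.6 and 47.9 TPM in NPC, with 30.03 and 32.7 in mESC and 29.2 and 27.8 in NC. Both lost their call under median-of-ratios scaling, quantile normalization and the replicate block, and under the first of these the list had 1 gene called higher and 3 lower in place of 3 and 1. With either NPC replicate left out 0 of the list were called in either direction, without mESC replicate 1, 0 were called higher, and without NC replicate 2, 1 was.

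A few genes of neurons were lower in NPC than in the stem cells before them. Stmn2, a tubulin regulator of growing axons, was at 67.5 and 77.8 TPM in the NPC libraries, compared with 162 and 193 in mESC and 498 and 439 in NC. Both mESC values exceeded both NPC values, and the differences were -1.27 from mESC and -2.67 from NC (SE 0.16 for each, adjusted p = 0.00125 and 0.00206). Prph, an intermediate filament of peripheral neurons, was at 1.07 and 1.29 TPM in NPC, with 13.1 and 12.8 in mESC and 45.5 and 11.1 in NC. Dnajc6, which uncoats clathrin vesicles, was at 1.05 and 1.76 TPM in NPC, with 30.8 and 25.9 in mESC and 30.2 and 18.9 in NC, and Camk2b, a calcium-dependent kinase, at 19.7 and 16.8 TPM in NPC, with 35.99 and 37.8 in mESC and 65.1 and 32.4 in NC. Epha4, a receptor of axon guidance, was at 23.97 and 24.7 TPM in NPC, with 67.96 and 36.5 in mESC and 52.04 and 58.2 in NC. In the synaptic list of 32 Camk2b and Slc17a7 were called lower and Camk2a, a paralog of Camk2b, was called higher, and 0 were called without either NPC replicate. In the axon guidance list Epha4 was the 1 of 42 tested called lower, 0 without either NPC replicate, and Unc5a the 1 called higher. Over all tested genes 2.48% were called higher and 1.39% lower, so counts this small say little about the synaptic and axon guidance lists. Of 22 genes on the neuron structure list Stmn2 was the 1 dip, and the list's medians were 2.59 from mESC and -2.28 from NC. Other dips of the leading 20 were the adhesion receptor Adgre5 at 4.12 and 7.69 TPM in NPC, the GTPase regulators Fgd5 at 1.07 and 1.18 and Adap1 at 1.55 and 2.39, the RAS relative Mras at 4.71 and 6.78, the semaphorin Sema4a at 2.95 and 2.18, the actin-bundling Dmtn at 2.36 and 3.17 and the noncoding RNA Bvht at 2.11 and 0. The lowest value outside NPC among these was 8.45 TPM, that of Bvht in NC replicate 1. Adgre5 overlaps Ddx39 on the opposite strand.

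**Figure D5:**
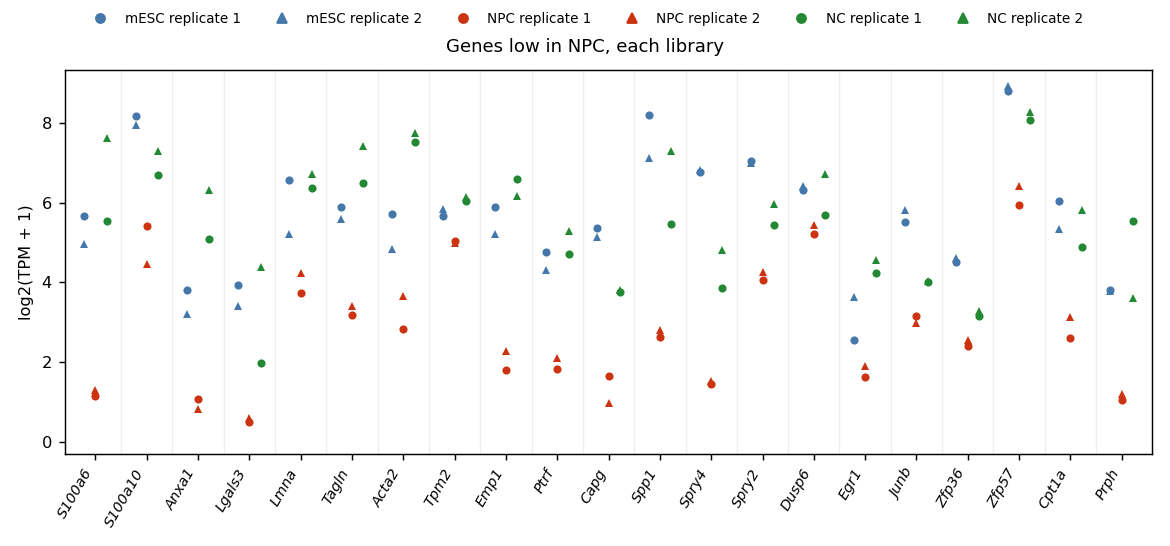
Level of selected dips in log2(TPM + 1) on the y axis, with 1 point for each library. The red NPC points lie lowest in every gene, at 1.24 and 1.45 TPM in S100a6 against up to 195 in NC, and the gap is narrow in Dusp6 and Zfp36. Colour gives the stage and shape the replicate.

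Beyond their expression, peaks and dips differed in the kinds of gene they held. Among peaks 84.4% were protein-coding and 10.01% processed pseudogenes, against 86.6% and 8.48% of all genes with an NPC mean of 10 TPM or more. Among dips 92.6% were protein-coding and 3.12% processed pseudogenes, against 87.1% and 7.85% of all genes with a mean of 10 TPM or more over the other libraries. Pseudogenes of any class made up 148 peaks, of which 13 were called, and 43 dips, of which 5 were called. An example is Tpt1, at 1988 and 1855 TPM in NPC, with Tpt1-ps3 at 988 and 1142; reads may be shared between such copies and their parent gene, so these values are uncertain. A gene with a mean of 1 TPM or more on the opposite strand overlapped the exons of 19.5% of peaks and 21.9% of dips, and 20.2% and 20.1% of the same backgrounds. The median length of exons was 3769 bases in peaks and 4126 in dips, against 4187 and 4192.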

How the data were processed

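RNA was measured in 6 libraries, 2 for each of 3 stages. Per the submitters' processing notes, the build was mm10 and the tools named were DESeq2, StringTie 2.1.5, STAR 2.7.9a, cutadapt 3.4 and FastQC, beside R 4.0.3. The sources used here give neither the annotation release nor the strand setting. The authors deposited a TPM value for each gene and library with an FPKM value and a coverage value beside it; no table of counts was used, so no count model was fitted. The files' coverage times length gives 1.57 to 2.27 Gb per library.

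Rows with the same gene ID were summed, which gave 46517 genes. Of these, 46005 matched GENCODE vM21 for class, exons and overlaps once the version of the ID was dropped. With the version 27555 matched, so exons and overlaps of the rest may differ from the models that were quantified. The rule compared the TPM values directly. In R 4.3.3, limma 3.58.1 (linear model with an empirical Bayes prior that follows the mean) was fitted to log2(TPM + 1), with a pseudocount of 1, on the 20232 genes with 1 TPM or more in at least 2 libraries. All 6 libraries entered the fit, which left 3 residual degrees of freedom. Contrasts were NPC minus mESC and NPC minus NC, with Benjamini-Hochberg adjustment over all tested genes and a threshold of 0.05 in both. Fold changes on this scale understate the change of low genes. The procedure was tested on simulated data. The labels call the libraries biological replicates and say nothing more of their source, so p-values measure the spread between these samples.

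Members, gene lists and alternatives were chosen with earlier results of these data known. Genes named by size are the 25 peaks and 20 dips with the largest smaller difference among those called; others come from the lists or are said to be chosen after their values were seen. Some genes that these rules name are not reported here. Alternatives were FPKM, other scalings, pseudocounts and filters, a fixed prior, a replicate block and leaving out each library. Whether replicate numbers pair the libraries is not known, and the main fit did not pair them.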

Additional observations from a re-analysis of the deposited data

How the results depend on the processing

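The counts over all genes held within 1.5 times under most settings that keep all libraries. The exceptions were 141 genes called lower, in place of 281, with no filter beyond a TPM above 0, 174 called lower when a log2 difference of 1 or more was also required in both contrasts, 618 dips in place of 1058 when FPKM replaced TPM, and 300 peaks and 189 dips when the nearest libraries had to lie at least 1.5-fold apart. With FPKM, 889 of the 1358 peaks and 528 of the 1058 dips were kept. Median-of-ratios scaling kept 977 of these peaks and 899 of these dips, and quantile normalization kept 1111 and 743. Similar counts thus held partly different genes. With each library left out in turn, 87 to 475 genes were called higher and 59 to 289 lower, the lowest 2 of each without an NPC library. The rule then gave 1593 to 1856 peaks and 1206 to 1566 dips. Of all calls 64.1% were higher, and 59.6% to 71.0% over the scalings and units. List counts under every setting were an alternative added after seeing the data: WNT calls lay between 4 and 15, Hox calls between 4 and 9 and retinoic acid calls between 9 and 13 over settings that keep all libraries.

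A replicate block gave 428 genes called higher and 222 lower. The differences between replicates 1 and 2 correlated over tested genes by 0.05 between mESC and NPC. They correlated by -0.08 between mESC and NC and -0.07 between NPC and NC. These weak correlations cannot tell whether libraries with the same number share a source, and the labels do not say.

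With no filter beyond a TPM above 0, 69 of the named genes lost their call, and 83 and 74 did without NPC replicate 1 and 2. Among the named genes none reversed its direction under a setting that keeps all libraries. Of those that reversed with a library left out, none was called with all libraries kept. Hoxb9 was called without NC replicate 2. The smaller difference lay between -0.10 and 0.58 for Aldh1a2, -0.19 and 0.11 for Aldh1a3, -0.66 and 0.0195 for Ctgf, -0.10 and 1.07 for Hey2, -0.23 and 3.24 for Hoxb9, -0.26 and 0.31 for Hoxc4, and -0.18 and 0.32 for Nes.

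With 2 libraries a stage and no counts, sampling error at low TPM is unknown.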

Other observations

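Over all tested genes 2.48% were called higher and 1.39% lower, so lists of this size would hold few calls at that share. The chromatin and RNA processing lists held few, which says little about them. Of 28 BAF complex genes, which remodel nucleosomes, 0 were called by limma in either direction, and 0 at an unadjusted p under 0.05 in both contrasts. Of 28 splicing regulators 0 were called, and 1 was higher at that unadjusted p. Among 31 polycomb and trithorax genes Cbx2, a reader of the polycomb mark, was called higher. Cbx2 was at 75.4 and 69.6 TPM in NPC, with 17.4 and 23.2 in mESC and 37.4 and 39.8 in NC. Its call was lost without either NPC replicate or NC replicate 1. In the neural crest list Ret, a receptor for the GDNF family, was called higher. It was at 38.5 and 29.5 TPM in NPC, with 0.862 and 0.747 in mESC and 14.3 and 11.7 in NC. Foxd3, a factor of stem cells and early crest, was called lower. It was at 5.96 and 5.27 TPM in NPC, with 19.4 and 15.7 in mESC and 35.8 and 11.5 in NC. Foxd3 lost its call with FPKM, under either other scaling and with any library but NC replicate 2 left out, and without NC replicate 1 the smaller difference was -0.93. Ret lost its call without either NPC replicate.

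Some called genes of skeletal and kidney biology are on no list and were chosen after their values were seen. Col2a1, the collagen of cartilage, was at 116 and 101 TPM in NPC, with 3.02 and 3.73 in mESC and 42.3 and 29.9 in NC. Pth1r, the receptor of parathyroid hormone, was at 234 and 199.6 TPM in NPC, with 36.4 and 7.74 in mESC and 36.6 and 39.1 in NC, and overlaps Myl3 on the opposite strand. In both genes the NPC values lay above every other value.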
